A study of Mus musculus with 2 samples.

Results

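Cortical hem progenitors of the embryonic mouse telencephalon were described across genes in 1 single cell RNA-seq library of the telencephalic vesicle labelled E12, from embryos of E11.5 to E12 in the description of the methods. They were selected on measured transcripts. Barcodes with at least 2500 unique molecular identifiers (UMIs, each marking 1 captured transcript) and under 6% mitochondrial UMIs were kept. A cell was taken as an apical progenitor (AP) where the summed UMIs of *Sox2*, *Hes1*, *Hes5*, *Vim*, *Nes*, *Fabp7* and *Slc1a3* exceeded those of the neuronal genes *Tubb3*, *Stmn2*, *Dcx*, *Elavl3*, *Gap43* and *Mapt*. A hem progenitor also held at least 2 UMIs of *Wnt3a*, *Wnt2b* and *Rspo2* together and at most 1 UMI of *Fgf8* and *Fgf17* together, since these FGF genes mark the neighbouring septal midline. This gate gave 1076 cells, which were 12.6% (95% exact binomial interval 11.9 to 13.3) of the 8539 APs and 9.36% of the 11498 barcodes within the depth and mitochondrial limits, of 14283 barcodes in the library and 20110 in the series. The 7463 remaining APs of the library served as the comparison.

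The cortical hem is the strip of neuroepithelium that forms the medial edge of the pallium, between the hippocampal primordium and the choroid plexus. It secretes Wnt and BMP proteins, organises the hippocampus beside it, and produces Cajal-Retzius neurons. Wnt ligands leave the cell with the help of the carrier *Wls* and bind Frizzled and Lrp receptors, whose number at the membrane is raised by R-spondins, and the signal is read out by Tcf/Lef factors at target genes such as *Axin2*, *Sp5* and *Lef1*. BMP ligands act through Smad proteins on targets such as the Id and Msx genes.

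The series addressed protocadherins and cell cycle exit in neuronal development. The telencephalic vesicle library pooled tissue of 3 wild-type C57BL/6J embryos from 2 litters, a strain with no transgene, and was made with version 3.1 of the 10x Genomics 3' kit. A second library held septal explants labelled wild-type, pooled from 8 PGKCre;Rosa26YFP embryos of E11.5 (a ubiquitous Cre with a YFP reporter) and 4 Dbx1Cre;Rosa26tdTomato embryos of E12.5 (Cre in cells with a history of *Dbx1*, with a tdTomato reporter), also from 2 litters each, and was made with version 2 of the kit. With embryos pooled and 1 library per group, no spread between animals can be had and no test was run. Values are counts in 1000000 UMIs (CPM) from the summed UMIs of a group of cells, and their 95% intervals (exact Poisson for a level, exact conditional for a fold, exact binomial for a share) cover counting error only. The vesicle library held 194821794 UMIs and the septal library 83103280, and the libraries shared 1 barcode.

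Hem progenitors held a median of 14736.5 UMIs (range 3052 to 171279) and 4742.5 genes per cell, against 10936 UMIs (2508 to 207131) and 3874 genes in the other APs. Since the gate asks for a fixed number of UMIs, deeper cells can pass it more easily. With the other APs weighted to the depth of the hem progenitors, the *Lmx1a* fold was 36.5 in place of 36.7, and 576 genes in place of 583 were at least 2-fold higher and 904 in place of 926 lower. A doublet caller marked 9.29% of the hem progenitors (100 cells) and 4.22% of the other APs, and these cells were kept.

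*Rspo2* carried the gate. At least 1 *Rspo2* UMI was found in 99.5% of the hem progenitors, a *Wnt3a* UMI in 41.4% and a *Wnt2b* UMI in 3.16% (34 cells). *Rspo2* and *Wnt3a* were seen together in 41.3% of the cells, *Rspo2* without either Wnt gene in 57.1%, and 5 cells had no *Rspo2*. *Rspo2* alone reached the required 2 UMIs in 1063 cells (98.8%). Without *Rspo2*, 242 cells passed on *Wnt3a* and *Wnt2b*. *Wnt2b*, 1 of the 4 genes that mark the label, stood at 1.39 CPM, so the label rests here on *Rspo2*, *Wnt3a* and, outside the gate, *Lmx1a*. The median cell held 12 gate UMIs and the highest 366. At the border of the gate, the 445 APs with exactly 1 gate UMI held *Lmx1a* at 2.26 CPM and *Rspo3* at 59.9 CPM, and the 90 members with exactly 2 held *Lmx1a* at 19.2 CPM and *Rspo3* at 319 CPM. The limit on *Fgf8* and *Fgf17* was set for the members and not for those 445 APs, so the 2 groups also differ in it.

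*Lmx1a*, a LIM homeodomain factor of the hem and the roof plate (ENSMUSG00000026686, chr1:167689237-167848741 on the plus strand of GRCm38), was not used by the gate. It stood at 181 CPM (176 to 186) in the hem progenitors and at 4.92 CPM (4.55 to 5.3) in the other APs, a fold of 36.7 (33.9 to 39.9). The other APs include 163 cells that only the limit on *Fgf8* and *Fgf17* kept out, and these held 425 of the 672 *Lmx1a* UMIs of that group. With the limit dropped, so that they counted as members, the fold was 88.3. A *Lmx1a* UMI was present in 66.1% of the hem progenitors and 4.15% of the other APs. With each cell thinned to 2500 UMIs, the shares were 31.9% and 1.1%. Cells rich in globin, endothelial or macrophage transcripts were used to read the background of free RNA. They were taken from all barcodes within the limits except the hem progenitors, so some can also count among the other APs. In 452 globin-rich cells (median 5934 UMIs) *Lmx1a* was found in 30.1% (25.9 to 34.5) of cells and at 45.8 CPM, while *Rspo2* was found in 1.99% of them at 9.26 CPM. In 39 macrophage-like cells (median 15108 UMIs) no cell had a *Lmx1a* UMI, where 3 such cells would be a share of 7.69% and the exact interval for cells with a UMI reaches 9.03%. In 34 endothelial cells (median 32750 UMIs) *Lmx1a* was found in 11.8% at 21.1 CPM, and *Rspo2* stood at 59.1 CPM. After thinning, *Lmx1a* was found in 11.1% (8.32 to 14.3) of globin-rich cells, and the interval of macrophage-like cells reaches into that range. The source of the UMIs in globin-rich cells was not tested.

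Of 16342 genes with at least 50 UMIs over all APs, 583 (3.57%) were at least 2-fold higher in hem progenitors and 926 (5.67%) at least 2-fold lower, with a median log2 fold of 0.01. Of the genes measured, 332 reached 50 UMIs only with the counts of the hem progenitors, at most 1 of them in any list described here. The 15 genes outside the gate with the highest folds, among those at 20 CPM or more, were *Ttr*, *Lmx1a*, *Rspo3*, *Wnt9a*, *Bmp6*, *Zfp804b*, *C130073E24Rik*, *Pcp4l1*, *Msx2*, *Gmnc*, *Folr1*, *Lrrtm3*, *Bmp4*, *Rbm47* and *Lrp1b*. Their folds ran from 53.3 for *Ttr* to 11.3 for *Lrp1b*, a large endocytic receptor of the LDL receptor family. Among these 15, the *Ttr* fold had the widest range over the alternatives tried, from 5.04 with a gate without *Rspo2* and to 200 with no limit on *Fgf8* and *Fgf17*. With no such limit, *Rspo3* had a fold of 46.9, *Bmp6* of 59.5 and *Folr1* of 42.4. At their lowest, *Rspo3* had a fold of 9.56 and *Folr1* of 7.98 with a gate without *Rspo2*, and *Bmp6* of 11.1 against APs with *Emx1*. *Zfp804b*, a zinc finger gene, stood at 308 CPM against 16.3 CPM. The genes include an R-spondin (*Rspo3*), a Wnt (*Wnt9a*), a BMP pair (*Bmp4*, *Bmp6*), a BMP target (*Msx2*) and genes of choroid plexus and ciliated cells (*Ttr*, *Folr1*, *Gmnc*).

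**Figure D1:**
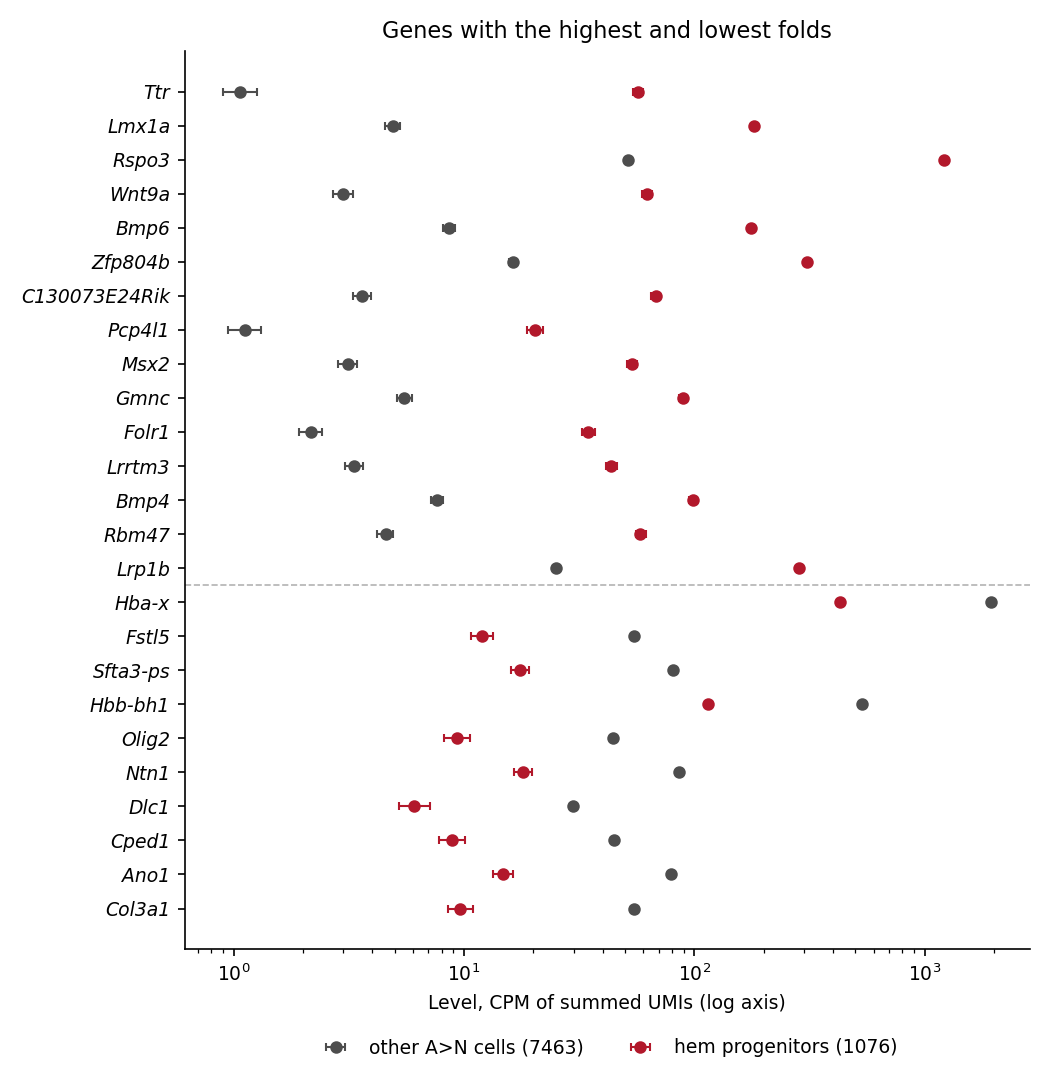
CPM (log axis) of the 15 genes with the highest and the 10 with the lowest fold in the 1076 hem progenitors and the 7463 other APs (A>N cells in the legend) of the vesicle library, with 95% Poisson intervals as bars. *Ttr* (56.9 against 1.07 CPM) and *Lmx1a* (181 against 4.92 CPM) lie farthest apart among the higher genes, and *Col3a1* (9.63 against 54.5 CPM) among the lower ones.

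Several of the 10 lowest genes mark other tissues or regions. *Olig2*, a ventral progenitor factor, stood at 9.34 CPM in hem progenitors and 44.4 CPM in the other APs (fold 0.21), and the ventral midline guidance cue *Ntn1* at 18.1 and 86.2 CPM. *Sfta3-ps*, a pseudogene beside *Nkx2-1*, had a fold of 0.217, the chloride channel gene *Ano1* one of 0.187 and *Fstl5* one of 0.219. The other lowest genes were the embryonic globins *Hba-x* (431 and 1940 CPM) and *Hbb-bh1* (115 and 534 CPM), the collagen *Col3a1*, *Cped1* and *Dlc1*. The other APs held more cells in clusters led by mesenchyme, vessel, macrophage or globin genes (872 cells, 11.7%) than the hem progenitors (34 cells, 3.16%). With those clusters left out of both groups, the folds were 0.956 for *Col3a1*, 0.704 for *Cped1*, 0.655 for *Dlc1*, 0.735 for *Hba-x* and 0.79 for *Hbb-bh1*. *Ano1* (0.17), *Ntn1* (0.186), *Olig2* (0.184), *Sfta3-ps* (0.196) and *Fstl5* (0.206) stayed below the 2-fold limit there, and the count of lower genes was 553 in place of 926, with 661 higher. Against narrower groups of APs these genes did not all stay lower. A group of 444 *Emx1* cells (APs with *Emx1* and without *Gsx2*, *Dlx1*, *Dlx2* and *Nkx2-1*) was deeper (median 24864 UMIs). It held up to 195 gate UMIs per cell, so cells that only the FGF limit kept out can be in it. Against it, *Ntn1* had a fold of 0.988, *Ano1* of 0.585, *Olig2* of 3.51 and *Sfta3-ps* of 15.2. Since these cells were chosen to lack subpallial genes, the folds of the ventral genes *Olig2* and *Sfta3-ps* follow in part from that choice and decide nothing. Against cells with *Fgf8* or *Fgf17*, *Fstl5* had a fold of 0.967.

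Over whole marker lists, the summed level of 8 mesenchyme genes was 40 CPM in hem progenitors and 144 CPM in the other APs, with 7 of the 8 at least 2-fold lower and *Col3a1* the most abundant. The 7 globin and red cell genes were all lower, summing to 2062 and 8973 CPM, with *Hbb-y* the most abundant. Endothelial genes summed to 14.5 and 29.7 CPM (4 of 6 lower, *Egfl7* the most abundant) and macrophage genes to 19.1 and 31.2 CPM (1 of 6 lower, *Fcer1g* the most abundant). No marker of these lists was at 0 in either group. These levels bear on every gene described as lower below, and their part there was not tested beyond the values without those clusters.

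Wnt and R-spondin ligands with their secretion factors, the gate genes left out, summed to 2762 CPM in hem progenitors and 368 CPM in the other APs, a fold of 7.51 (7.42 to 7.59). Of 15 measured genes, 7 were at least 2-fold higher and 4 at least 2-fold lower, with a median log2 fold of 0.37. *Rspo3*, an R-spondin (chr10:29452416-29535867, minus strand), stood at 1211 CPM (1198 to 1224) against 51.5 CPM, a fold of 23.5 (22.9 to 24.2), and *Rspo1* at 433 CPM against 39.3 CPM, a fold of 11. The canonical ligand *Wnt8b*, known for its place in the medial pallium, reached 416 against 47.1 CPM. The folds were lower against narrower groups of APs, at 3.75 for *Rspo1* against cells with *Fgf8* or *Fgf17*. For *Wnt8b* the fold was 8.84 against all other APs and 2.92 against *Emx1* cells. The ligands *Wnt9a*, *Wnt4* and *Wnt7b* had folds of 20.9, 7.94 and 3.7, and *Wls*, the membrane protein that carries lipid-modified Wnts to the surface, one of 7.68 (330 against 43 CPM). *Wnt5a* and *Wnt5b*, which mainly signal outside the beta-catenin pathway, did not reach the 2-fold limit, at 17 against 16.7 CPM and 99.6 against 98.4 CPM. *Wnt7a* was the lower one of the ligands with more than 3 UMIs in the hem progenitors, at 5.07 against 15.4 CPM, while *Wnt1*, *Wnt6* and *Wnt16* had 3 UMIs or fewer there.

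Receptors differed less and in both directions. Of 18 measured Wnt receptors and co-receptors, 2 were at least 2-fold higher (*Fzd10*, at 9.04 against 1.35 CPM, and *Fzd6*, at 8.79 against 3.98 CPM) and 4 lower. *Fzd8*, a Frizzled receptor, had a fold of 0.252 and the R-spondin receptor *Lgr4* one of 0.336, so that R-spondin transcripts were higher and this receptor lower in the same group of cells. The co-receptor *Lrp6* stood at 92.4 against 95.4 CPM. Among 12 measured secreted antagonists, 4 were higher and 4 lower. *Dkk3*, *Draxin*, *Sostdc1* and *Wif1* had folds of 4.69, 2.72, 2.63 and 2.12, and *Sfrp1*, a Frizzled-like decoy, was at 78.5 against 201 CPM.

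Of 16 measured genes listed as Wnt targets, 5 were at least 2-fold higher and 1 lower, and their summed level was 2041 against 1813 CPM. *Sp5*, a zinc finger repressor induced by Wnt signalling (chr2:70474923-70477729, plus strand), stood at 55.4 against 6.34 CPM, a fold of 8.73 (8.02 to 9.5), which was 3.46 against *Emx1* cells alone. *Axin2*, a feedback inhibitor of the pathway, had a fold of 5.24 (111 against 21.3 CPM), and the membrane inhibitor *Apcdd1* one of 4.88. *Nkd1*, another feedback inhibitor, had a fold of 2.37, and *Bmp4*, listed here as well as among the BMP ligands, one of 12.9. *Lef1*, the transcription factor that carries the signal to DNA, was at 142 against 85.9 CPM, short of the 2-fold limit. The D-type cyclins differed in direction, with *Ccnd1* at 254 against 601 CPM and *Ccnd2* at 756 against 431 CPM.

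The promoter of *Sp5* is printed here because this Wnt target had the highest fold of the genes on the list that are not themselves ligands. The window runs from 250 bases before to 50 bases after the start of the transcript (RefSeq, GRCm38.p6, chr2:70474673-70474972, plus strand, 5' to 3'). Capitals mark CTTTGA, the core bound by Tcf/Lef factors, which was searched on both strands (TCAAAG on the other), and the 2 matches begin 204 and 104 bases before the start.
Sp5 promoter: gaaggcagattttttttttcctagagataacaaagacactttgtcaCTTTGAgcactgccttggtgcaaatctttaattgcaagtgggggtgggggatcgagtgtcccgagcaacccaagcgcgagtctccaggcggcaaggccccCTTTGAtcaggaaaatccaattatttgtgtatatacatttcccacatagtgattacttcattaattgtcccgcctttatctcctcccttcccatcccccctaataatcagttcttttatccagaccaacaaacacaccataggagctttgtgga
The same letters occur in 5257 of 32851 promoter windows of this length (16%). Of the 18 genes on the Wnt target list, 11 had a window and 3 held the letters in at least 1 of their windows (*Sp5*, *Lef1* and *Tnfrsf19*). The windows of *Axin2*, *Nkd1* and *Bmp4* did not hold these letters, which says nothing of binding elsewhere.

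BMP ligands were higher as a group, at 455 against 92.1 CPM in sum (fold 4.94), with 7 of 9 measured genes at least 2-fold higher, 1 lower and a median log2 fold of 2.84. *Bmp6* (chr13:38345107-38500302, plus strand) stood at 177 against 8.63 CPM, a fold of 20.5 (19.2 to 21.9), and *Bmp4* at 98.9 against 7.67 CPM. *Bmp5* and *Bmp7*, which form a subfamily with *Bmp6*, had folds of 8.86 and 6.82. *Bmp2*, the close relative of *Bmp4*, was at 9.3 against 0.549 CPM, and *Gdf10* and *Gdf5* were also higher at levels under 5 CPM. The lower gene of the list was *Bmper*, which encodes a secreted BMP modulator and not a ligand, at 16.4 against 40.9 CPM, so it made up much of the sum in the other APs. Among 10 measured receptors and Smads, 1 was higher and 1 lower, the latter being the type I receptor *Bmpr1b* at 94.2 against 224 CPM. Secreted BMP antagonists gave 2 higher and 2 lower of 10.

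Of 11 measured BMP response genes, 9 were at least 2-fold higher, and the list summed to 2431 against 784 CPM (fold 3.1). The Id genes encode inhibitors of basic helix-loop-helix factors, and *Id3* stood at 1384 CPM (1370 to 1398) against 134 CPM, *Id1* at 308 against 28.2 CPM and *Id2* at 242 against 77 CPM. *Id4* went the other way, at 225 against 455 CPM (fold 0.494). The homeobox genes *Msx2* and *Msx1* had folds of 17.1 and 2.37, and the feedback inhibitors *Smad6*, *Bambi* and *Smad7* folds of 3.99, 3.63 and 2.22. After thinning to 2500 UMIs per cell, an *Id3* UMI was present in 83.5% of hem progenitors, 21.3% of the other APs and 6.68% of the globin, endothelial and macrophage cells. The last group can overlap the other APs.

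**Figure D2:**
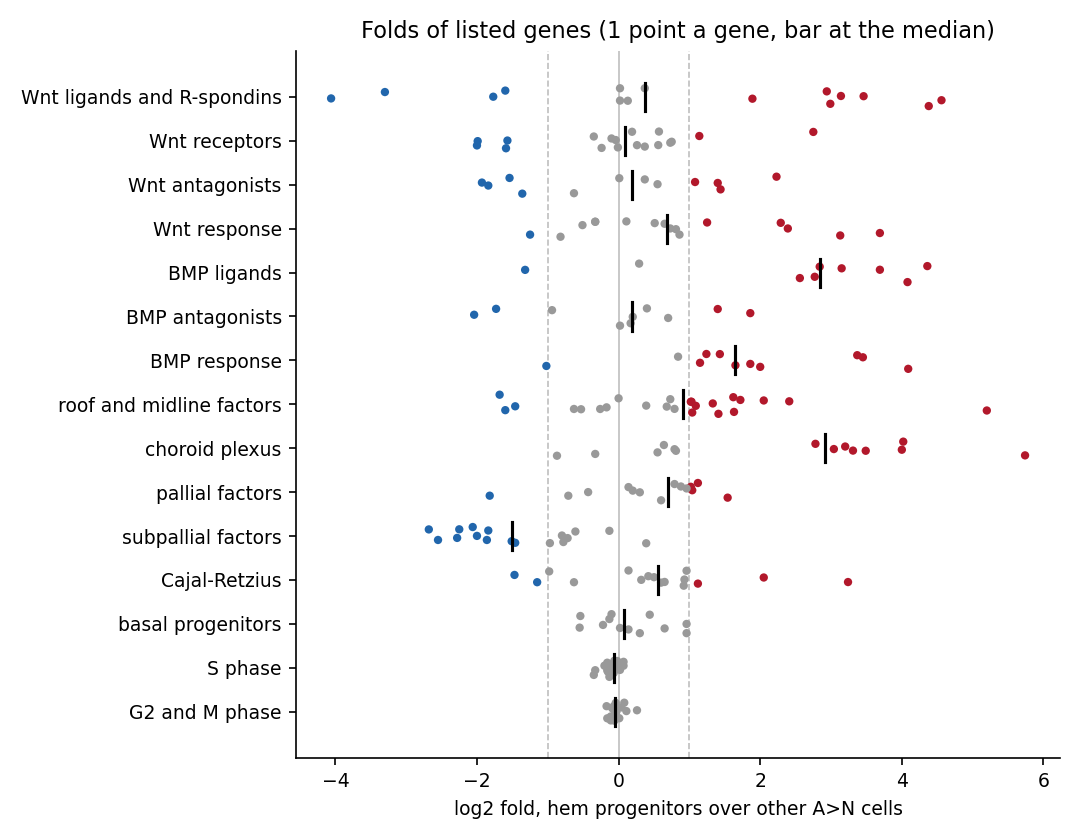
Log2 fold of hem progenitors over the other APs (A>N cells on the axis) for the measured genes of 15 lists, 1 point per gene, with a black bar at each list's median and dashed lines at the 2-fold limits. Outside the gate genes, BMP ligands and choroid plexus genes have the highest medians (2.84 and 2.91). Subpallial factors have the lowest (-1.51) outside the gate genes and the non-neural lists. The globin, mesenchyme and endothelial lists had medians of -2.12, -1.88 and -1.62. The S-phase and G2/M genes all lie between the dashed lines.

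Some transcription factors of the dorsal midline were higher in hem progenitors beyond *Lmx1a*. Of 24 measured roof plate and midline factors, 12 were at least 2-fold higher and 3 lower, with a median log2 fold of 0.9. The list summed to 4192 against 3434 CPM, a fold of 1.22, which was 1.05 against *Emx1* cells. *Dmrt3* and *Dmrta2*, doublesex-related factors of the medial pallium, had folds of 5.31 (119 against 22.4 CPM) and 3.07. *Lhx5*, a LIM homeodomain factor of the hem and of Cajal-Retzius cells, was at 65.3 against 15.8 CPM. The zinc finger genes *Zic5*, *Zic2* and *Zic1* had folds of 3.29, 3.1 and 2.13, and the orphan receptor *Nr2f2* one of 2.51. The lower genes were *Lmx1b* and the TALE homeobox genes *Meis1* (22.5 against 68.1 CPM) and *Meis2* (219 against 699 CPM).

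Some selector genes of the cortex were also higher. Among 14 measured pallial selectors, 4 were at least 2-fold higher and 1 lower. The list summed to 918 against 965 CPM, a fold of 0.952. That fold was 0.587 against *Emx1* cells, which were selected on a pallial gene. *Emx1*, *Emx2* and *Hopx* had folds of 2.18, 2.02 and 2.91. The *Emx1* level was not shared by all hem progenitors, at 77.6 CPM in the larger of 2 clusters described below and 7.84 CPM in the other. *Emx2* lay at the limit, stayed past it in 15 of 21 alternatives, and had a fold of 0.87 against *Emx1* cells. *Pax6* was at 122 against 106 CPM. *Lhx2*, the LIM homeodomain gene that opposes hem fate in the cortical primordium, was at 184 against 301 CPM, a fold of 0.613. This value was 0.313 with every cell thinned to 2500 UMIs, where the gate also kept 664 cells in place of 1076, so the part of depth was not separated. *Lhx2* ran from 79.6 through 102 to 224 CPM over 3 equal groups of hem progenitors from shallow to deep.

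Subpallial factors were lower, with 10 of 17 measured genes at least 2-fold lower, none higher, and a sum of 171 against 451 CPM. *Gsx2* and *Dlx2*, factors of ganglionic eminence progenitors, had folds of 0.249 and 0.275. *Nkx2-1*, the ventral selector, was at 15.1 against 63 CPM and *Shh*, the ventral morphogen, at 2.01 against 12.8 CPM. The comparison cells here were all other APs of the vesicle, ventral ones included. Against the *Emx1* cells, chosen for the lack of subpallial genes, the sum of the subpallial list had a fold of 2.59, and *Lmx1a* one of 21.4. FGF pathway genes outside the gate, the other midline signal, were at least 2-fold lower in 4 of 18 cases (*Fgf15*, *Fgf18*, *Fgf3* and *Spry4*) and higher in none.

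Choroid plexus and ciliated cell genes were also higher in the hem progenitors. Of 14 measured genes on that list, 8 were at least 2-fold higher and none lower, with a median log2 fold of 2.91 and a sum of 1100 against 462 CPM. *Ttr*, the thyroid hormone carrier of the choroid plexus (ENSMUSG00000061808, chr18:20665280-20674321, plus strand), was found in 10.5% of hem progenitors and 0.603% of the other APs. *Trpm3* was found in 48.6%, *Folr1* in 44%, *Clic6* in 29.6%, *Gmnc* in 23.6% and *Foxj1* in 21.7% of hem progenitors. *Ccno* and *Mcidas* were found in few of them, at 4.37% and 3.53%. The list was not higher by 2-fold against every neighbour, with a summed fold of 1.15 against cells with *Fgf8* or *Fgf17*, and the 163 cells that the FGF limit kept out held it at 1558 CPM. The channel *Trpm3* (208 against 18.4 CPM), the chloride channel protein *Clic6* (29 against 2.92 CPM) and the folate receptor *Folr1* (34.7 against 2.17 CPM) were also higher. *Kcne2*, a potassium channel subunit of mature choroid plexus, had 3 UMIs over all hem progenitors. The regulators of multiciliated cell fate *Gmnc* (89.3 against 5.52 CPM), *Mcidas* (6.27 against 0.68 CPM) and *Ccno* (6.42 against 0.936 CPM) and the ciliogenesis factor *Foxj1* (16.9 against 2.06 CPM) made up the rest of the higher genes. *Gmnc* is also known in the Cajal-Retzius lineage of the hem, together with *Trp73*.

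Of 16 measured Cajal-Retzius genes, 3 were at least 2-fold higher and 2 lower. *Trp73*, a p53 family gene of Cajal-Retzius cells, had a fold of 9.42 at a low level (8.82 against 0.936 CPM), and the others were *Lhx5* and *Nhlh2*. *Reln*, the secreted glycoprotein of these neurons, was at 20.9 against 15.6 CPM, while *Lhx1* (1.97 CPM) and *Calb2* (1.5 CPM) were near the floor. Of 12 measured basal progenitor genes, none reached 2-fold in either direction. *Eomes* stood at 14.3 against 11.6 CPM and *Neurog2* at 78.8 against 40.4 CPM.

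Cell cycle lists differed little. None of 20 S-phase genes (2650 against 2869 CPM in sum) and none of 22 G2/M genes (4353 against 4399 CPM) reached 2-fold, and both lists had a median log2 fold of -0.06. *Mki67*, the proliferation antigen, was at 186 against 210 CPM. *Cdk6*, the G1 kinase partner of D-type cyclins, had a fold of 2.39, and the cell cycle inhibitor *Cdkn1c* was at 147 against 250 CPM. Of the 18 measured Notch pathway genes, 1 was higher, the receptor *Notch2* (98 against 43.2 CPM), and 1 lower.

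Protocadherins, the adhesion family that the series addressed, were lower where they reached the 2-fold limit. The list summed to 506 against 638 CPM, a fold of 0.793. That fold was 0.974 with every cell thinned to 2500 UMIs, where the gate kept 664 cells, and 0.687 against *Emx1* cells. Of 10 measured, none was at least 2-fold higher and 4 were lower, namely *Pcdh10* (14 against 38.7 CPM), *Pcdh11x* (16.4 against 36.9 CPM), *Pcdh8* (2.66 against 7.16 CPM) and *Pcdh1*, which was under 1 CPM in both groups. *Pcdh19*, the X-linked member of the delta class, was at 70.4 against 128 CPM, short of the limit. Of 15 measured cadherins, *Cdh9* was higher (7.55 against 0.337 CPM, a gene that reached 50 UMIs only with those of the hem progenitors) and 4 were lower, and *Cdh2*, the N-cadherin of neuroepithelial junctions, was at 620 against 630 CPM. Of the other genes that the study addressed, the orphan nuclear receptor *Nr4a2* stood at 92.6 against 21.6 CPM (fold 4.28, 4.06 to 4.52, and 2.38 against *Emx1* cells), the Notch ligand *Jag1* at 17.5 against 17.6 CPM and *Dbx1*, a homeobox gene of the septum and ventral pallium, at 2.15 against 5.29 CPM. A *Nr4a2* UMI remained after thinning in 19% of hem progenitors and 3.97% of the other APs.

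Guidance genes gave 5 higher and 5 lower of 24 measured. The repellent *Slit3* was at 171 against 35.6 CPM, *Sema3c* at 31.7 against 8.49 CPM and the netrin receptor *Unc5c* at 92.1 against 31.1 CPM. On the lower side stood the netrin *Ntn1*, *Sema5a* (37.9 against 129 CPM), *Sema3a* (6.53 against 23.9 CPM) and the chemokine *Cxcl12* (2.01 against 12.2 CPM), which is also a meningeal gene. The Eph receptor *Ephb1* was at 54 against 154 CPM. With the clusters led by non-neural genes left out, the mesenchyme list itself had a fold of 1.27.

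Within the hem progenitors, levels varied with the number of gate UMIs. Cells with exactly 2, with 3 to 4, with 5 to 9 and with 10 or more gate UMIs numbered 90, 100, 235 and 651. From the lowest to the highest of these groups, *Lmx1a* ran from 19.2 to 230 CPM, *Rspo3* from 319 to 1438 CPM, *Id3* from 390 to 1604 CPM, *Axin2* from 25.4 to 135 CPM and *Ttr* from 10.4 to 65.9 CPM. In the opposite direction, *Lhx2* ran from 371 to 148 CPM, *Ccnd1* from 443 to 208 CPM and *Sfrp1* from 183 to 56.9 CPM. The first 3 groups had similar depth (median 10104.5, 9862 and 9662 UMIs) and the last was deeper (19858). Over the 3 groups of similar depth the BMP response list ran in sum from 1136 through 1505 to 2083 CPM and the mesenchyme list ran from 113 through 78.8 to 52 CPM.

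**Figure D3:**
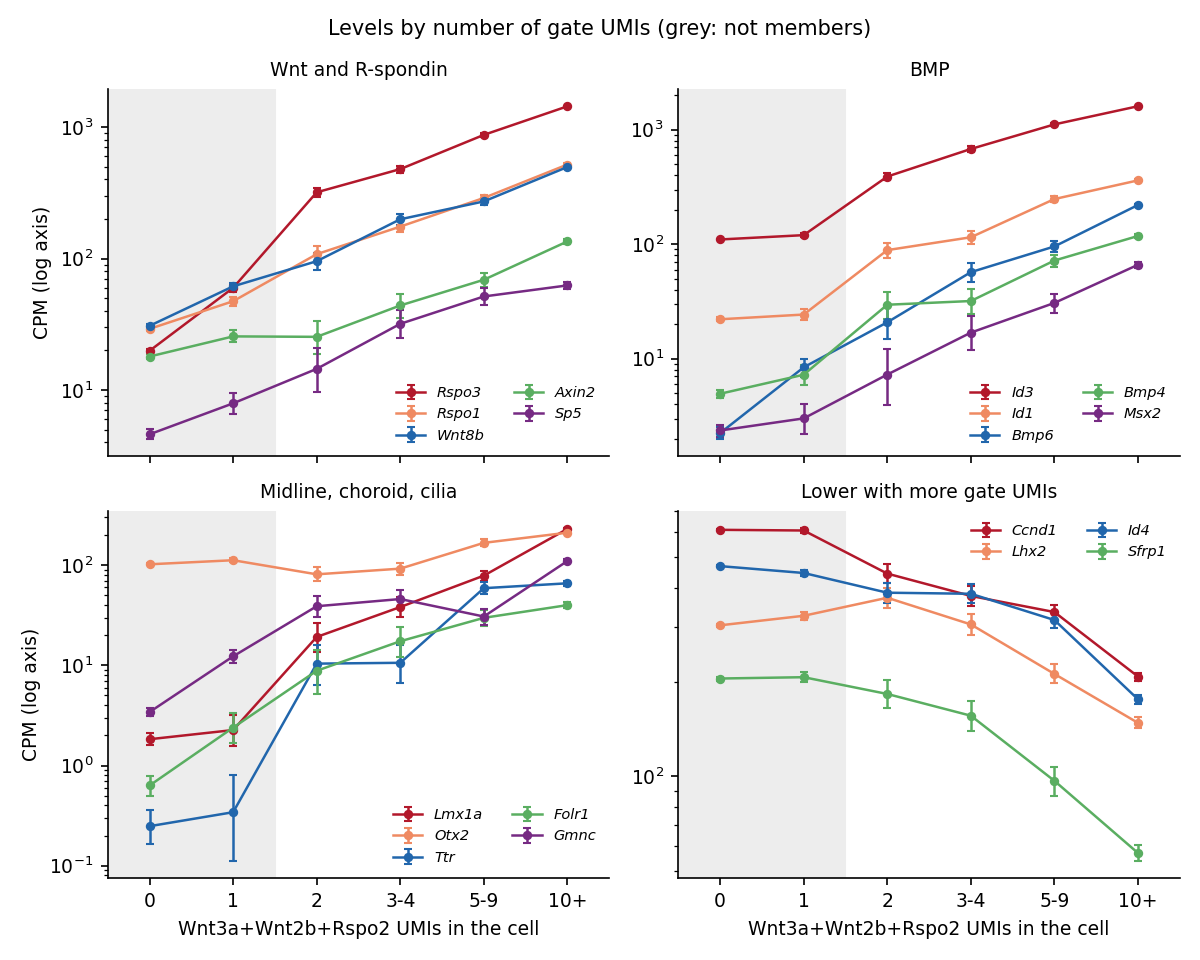
CPM (log axis) with 95% Poisson intervals of hem genes and of genes lower in the hem. The groups are APs with 0, 1, 2, 3 to 4, 5 to 9 and 10 or more UMIs of *Wnt3a*, *Wnt2b* and *Rspo2* together. The groups with 2 or more also held at most 1 UMI of *Fgf8* and *Fgf17*, a limit not set for those with 0 and 1. *Lmx1a* runs from 2.26 CPM at 1 UMI through 19.2 CPM at 2 UMIs to 230 CPM at 10 or more, and *Sfrp1* from 183 CPM at 2 UMIs to 56.9 CPM.

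The 444 cells with both *Rspo2* and *Wnt3a* differed from the 627 with *Rspo2* and no *Wnt3a*. *Lmx1a* was at 270 against 82.8 CPM, *Axin2* at 155 against 63.6 CPM, *Id3* at 1772 against 964 CPM and *Wnt8b* at 532 against 288 CPM. *Ttr* was alike, at 56.6 and 58 CPM, and *Lhx5* was at 54.4 against 78.2 CPM. The cells with *Wnt3a* were deeper (median 20524.5 against 12672 UMIs), so an absent *Wnt3a* UMI can reflect depth, and the part of depth here was not tested. Over 3 equal groups by depth, *Lmx1a* differed little in CPM (204, 187 and 175 from shallow to deep), whereas *Ttr* (109, 116 and 31.7 CPM) and the globin list (6350, 3862 and 886 CPM) did not keep their level.

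Along the ratio of neuronal to AP genes, in 3 groups of 355, 361 and 360 cells, *Lmx1a* ran from 308 through 174 to 99.4 CPM and *Wnt3a* from 74.6 through 40.1 to 23.5 CPM. Genes of differentiating cells ran upward, with *Eomes* at 1.49, 4.78 and 31.1 CPM, *Neurog2* at 36.3, 69 and 116 CPM, *Trp73* at 2.3, 4.35 and 17.1 CPM, and *Mcidas* at 0.948, 3.04 and 12.6 CPM. *Mki67* stayed between 182 and 194 CPM, so a proliferation transcript did not follow this ratio. Called doublets ran from 2.82% through 6.09% to 18.9% over the same groups, and their part was not tested.

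Clusters of the 11498 barcodes within the limits were made without the genes of the gate. Of 22 clusters, 19 held at least 1 hem progenitor, and 939 hem progenitors (87.3%) lay in 2 of them. The first held 661 (61.4%), was led by *Zfp804b*, *Lmx1a*, *Rspo2*, *Bmp6*, *Ttr* and *Rspo3*, and consisted of hem progenitors for 87.7% of its 754 APs. The second held 278 (25.8%), was led by *Adamtsl1*, *Gm29683*, *Zfp503* and *Sfrp2*, and had 62.9% hem progenitors among its 442 APs. The remaining 137 cells (12.7%) were spread over 17 clusters, 11 of them in a cluster led by *Cdkn1a*, *Ccno*, *Trp73*, *Mcidas* and *Gmnc*, where they were 42.3% of 26 APs. The clusters were given no cell type name. Since clustering used these genes, the differences between them are a description.

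Hem progenitors of the first cluster held more of the choroid plexus, BMP and Wnt target genes than those of the second. Of 12208 genes measured, 604 (4.95%) were at least 2-fold higher and 293 (2.4%) at least 2-fold lower in the first. On the choroid plexus list 9 of 10 measured genes were higher and none lower, on the BMP response list 7 of 10 were higher and 1 lower, and on the Wnt target list 6 of 14 were higher and none lower. *Lmx1a* stood at 303 CPM in the first and 28.2 CPM in the second, a fold of 10.8, and was found in 89% and 23.4% of cells. The values of the second cluster lay below those of the globin-rich cells (45.8 CPM and 30.1% of cells). They lay above those of the other APs, of the endothelial cells (21.1 CPM and 11.8%) and of the macrophage-like cells, which had no *Lmx1a* UMI. *Wnt3a* (6.55 CPM) and *Wnt2b* (0.855 CPM) were low in the second cluster too. Of the 4 label genes, the hem name of its cells thus rests mainly on *Rspo2*, which the gate selected. *Ttr* was at 98.9 against 1.42 CPM, *Msx2* at 91 against 4.84 CPM, *Wnt3a* at 71.8 against 6.55 CPM and the transcriptional cofactor *Lmo2* at 144 against 8.98 CPM. *Emx1* (77.6 against 7.84 CPM) and *Slit3* (279 against 28.2 CPM) also belonged to the first cluster.

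*Rspo3*, which the gate did not use, was at 1623 CPM in the first cluster and 996 CPM in the second. Genes higher in the second cluster were the metalloprotease-like gene *Adamtsl1* (142 against 5.78 CPM), the forkhead gene *Foxd1* (33.8 against 2.06 CPM), the Notch ligand-like gene *Dlk1* (283 against 26.9 CPM), the ephrin receptor *Epha3* (694 against 105 CPM) and the neural progenitor factors *Sox21* (149 against 27.6 CPM) and *Sox1* (91.2 against 17.1 CPM). *Meis1*, *Nr2f2*, *Pax6* and *Id4* were higher there too, at 42.3, 854, 182 and 352 CPM against 7.97, 362, 93.4 and 108 CPM. The median depths of the first and second clusters' cells were 13270 and 15241.5 UMIs, and called doublets made up 6.66% and 10.8%.

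**Figure D4:**
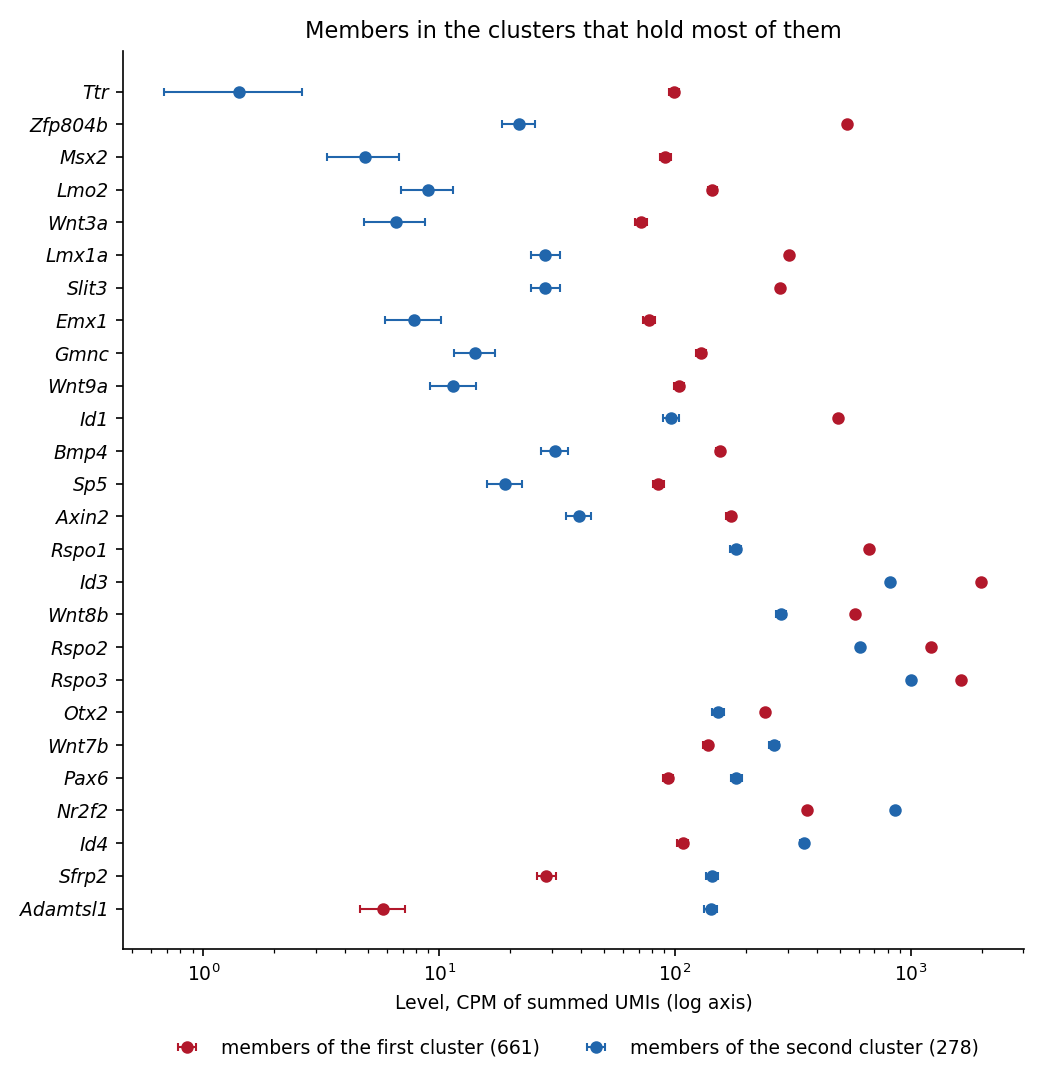
CPM (log axis) with 95% Poisson intervals in the 661 hem progenitors of the first cluster and the 278 of the second. *Lmx1a* (303 against 28.2 CPM) and *Ttr* (98.9 against 1.42 CPM) lie higher in the first, and *Adamtsl1* (5.78 against 142 CPM) in the second.

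The limit on *Fgf8* and *Fgf17* left out 163 APs that otherwise passed the gate (median 20522 UMIs). They held *Lmx1a* at 84.5 CPM (76.6 to 92.9), *Rspo3* at 761 CPM, *Wnt8b* at 383 CPM and *Bmp6* at 158 CPM, below the hem progenitors for each but well above the other APs, beside *Fgf17* at 202 CPM and *Fgf8* at 106 CPM, which the limit selected. *Otx2*, a homeobox gene of the midline, was at 240 CPM in them and 187 CPM in the hem progenitors, and *Lhx5* at 92.8 and 65.3 CPM. These cells count among the other APs, and with the limit dropped the 1239 members had a *Lmx1a* fold of 88.3.

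The same gate was applied to the septal explants, where the rule had not been set. It selected 79 of 3891 APs (2.03%, 1.61 to 2.52). Because kit and software version differed, levels were not compared between the libraries, only folds within each. Of 12452 genes measured there, 1053 (8.46%) were at least 2-fold higher in the selected cells and 674 (5.41%) lower. Of the 15 genes named above as highest in the vesicle, 12 were measured in the septal explants and all 12 were at least 2-fold higher. Of the 10 lowest, 9 were measured and 6 were at least 2-fold lower. Over 12252 genes measured in both libraries, 336 were at least 2-fold higher in the vesicle, and of these 265 were also higher in the septal explants and 5 lower.

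*Lmx1a* had a fold of 16.4 (11.9 to 22.4) in the septal explants and 36.7 in the vesicle. The folds of *Rspo3* were 26.3 and 23.5, of *Wnt9a* 43.9 and 20.9, of *Wnt8b* 9.65 and 8.84, and of *Rspo1* 9.22 and 11. *Msx2* (71.5), *Id3* (14.3), *Axin2* (7.17), *Sp5* (11.3) and *Ttr* (16.2) were higher in the septal hem progenitors as well, and *Nr4a2* had a fold of 3.8. *Ccnd1* had a fold of 0.191 there. *Ccnd2* did not keep its direction, at 0.564 in the septal explants and 1.75 in the vesicle. By list, 8 of 12 measured Wnt ligands and secretion factors, 9 of 11 BMP response genes and 8 of 9 choroid plexus genes were at least 2-fold higher, and 8 of 13 subpallial factors were lower and 2 higher (*Isl1*, with a fold of 4.49, and *Dlx5*, with 5 UMIs in the selected cells). Other lists were mixed there. Wnt target genes gave 5 higher and 3 lower of 13, and roof plate and midline factors 6 higher and 2 lower of 22. Pallial selectors gave 2 higher and 2 lower of 14, and protocadherins 2 higher and 5 lower of 8. The globin *Hba-x* and the collagen *Col3a1* were lower in the septal cells too, at folds of 0.0184 and 0.0945, and their part there was not tested.

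**Figure D5:**
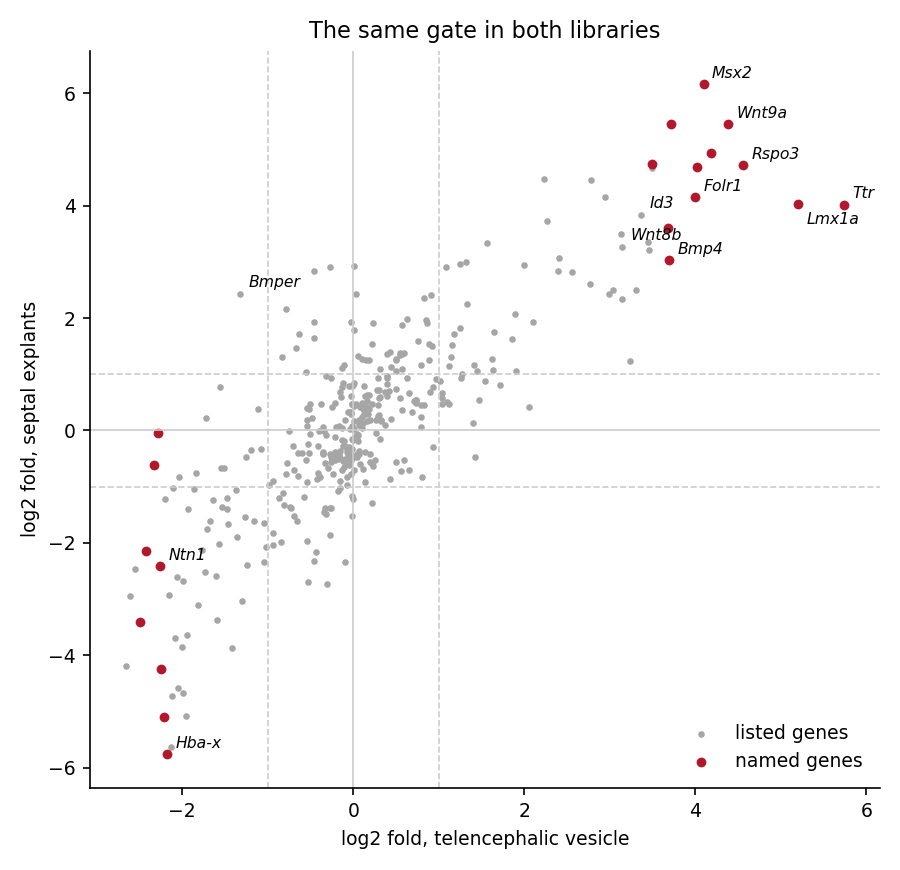
Log2 fold of hem progenitors over other APs in the telencephalic vesicle (horizontal axis) and in the septal explants (vertical axis) for 402 genes with UMIs in both groups of both libraries, 1 point per gene, with the named genes in red and dashed lines at the 2-fold limits. *Lmx1a*, *Rspo3*, *Wnt9a* and *Msx2* lie at the upper right and *Hba-x* and *Ntn1* at the lower left.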

How the data were processed

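The authors deposited raw counts of UMIs per gene and barcode for each library, made with Cell Ranger 7.1.0 (telencephalic vesicle) and 2.1.1 (septal explants) on mm10, per the labels and the submitters' processing notes. Whether intronic reads were counted was not given in the sources used here. Input was tissue of pooled embryos, and the UMI totals are those given in the report. The members, gene lists and limits were chosen with earlier results of these data known.

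Counts were read with numpy 2.4.6, scipy 1.17.1 and pandas 2.3.3 in Python 3.11.15. UMIs were summed over the cells of a group and divided by the group's total. Genes with at least 50 UMIs over all APs were measured, and 2-fold is a description, not a test. A fold is a ratio of CPM with no pseudocount, and a group with 0 UMIs was set to 3, giving a bound that was dropped where it lay on the far side of 1. Named genes were the 15 highest and 10 lowest folds at 20 CPM or more in the higher group, leaving out the gate genes, and the genes of 40 lists (571 entries, 569 matched by symbol). Where a symbol had several identifiers (40 symbols), it was kept for the identifier with most UMIs. The other identifiers were kept as separate features and not summed. Cells were thinned by drawing 2500 UMIs without replacement. Reference cells held at least 10% globin UMIs or at least 3 UMIs of endothelial or macrophage markers. Leiden clusters (scanpy 1.11.5, igraph 0.11.9) used 2000 variable genes without gate, cell cycle and mitochondrial genes, 30 components, 15 neighbours and resolution 1. Doublets were called with Scrublet and kept. Positions are from GENCODE M21 on GRCm38. The interval code was tested on simulated counts. Plots used matplotlib 3.10.9. Other gates, depth and mitochondrial limits, filters, fold limits and comparison cells were tried as alternatives. Some genes are not reported here.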

Additional observations from a re-analysis of the deposited data

Results flagged for a closer look

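*Bmper*, which encodes a secreted modulator of BMP signalling, drew attention because its fold pointed in opposite directions in the libraries. In the telencephalic vesicle it stood at 16.4 CPM in hem progenitors and 40.9 CPM in the other APs, a fold of 0.401 (0.364 to 0.442). In the septal explants it stood at 5.82 CPM and 1.08 CPM, a fold of 5.41 (2.09 to 11.8) that rests on 7 and 63 UMIs. The difference between the libraries was not tested.

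A *LacZ* feature, which wild-type embryos without a *LacZ* allele do not carry, held 11 UMIs in 9 barcodes of the telencephalic vesicle library. None of these barcodes was a hem progenitor. The source of the UMIs was not tested.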

How the results depend on the processing

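No paired analysis was possible because each group was a single pooled library, so there were no pairs of samples to block on. Across 21 alternatives, 2 of them (clusters led by non-neural genes left out, and the first cluster only) chosen after seeing the data, 25 of the 41 list and gene folds past 2-fold stayed past it in the same direction under every alternative. The number of hem progenitors was 1076, and it was 242 without *Rspo2* in the gate, 664 after thinning and 661 in the first cluster. The 583 higher genes became 1874 with no filter beyond 1 UMI and 1185 at a fold of 1.5. The 926 lower genes became 1644 with no filter, 500 at 200 UMIs, 1811 at a fold of 1.5, 1393 without *Rspo2*, 1571 for the first cluster only, 553 without clusters led by non-neural genes, 208 against *Emx1* cells and 540 against 594 cells with *Fgf8* or *Fgf17*. The *Lmx1a* fold of 36.7 was 19 without *Rspo2*, 88.3 with no limit on *Fgf8* and *Fgf17*, 40.2 without called doublets, 31.3 after thinning, 40 without clusters led by non-neural genes, 61.7 for the first cluster, 21.4 against *Emx1* cells and 59.3 against cells with *Fgf8* or *Fgf17*. Among folds past 2-fold, directions turned for the mesenchyme list (1.27 without clusters led by non-neural genes) and, against *Emx1* cells, which were chosen to lack subpallial genes, for the subpallial list (2.59), the globin list (1.39), *Hba-x* (1.41), *Hbb-bh1* (1.35), *Sfta3-ps* (15.2), *Olig2* (3.51) and *Emx2* (0.87). Summed folds ranged from 4.46 to 10.1 for Wnt ligands, 4.3 to 7.3 for BMP ligands, 2.72 to 4.2 for BMP response genes and 1.15 to 3.41 for choroid plexus genes. *Ttr* ranged from 5.04 to 200, *Msx2* from 12.9 to 64, *Bmp4* from 6.31 to 23.1, *Id1* from 6.99 to 17.4 and *Axin2* from 3.18 to 8.07. Depth limits genes under about 50 UMIs, and a pool of embryos shows nothing of the spread between them.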

Other observations

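Further groups not described above differed in single genes. Among the retinoid genes, the retinoid binding protein *Crabp1* was at 17.5 CPM in hem progenitors against 74.5 CPM in the other APs, while *Crabp2* stood at 422 against 228 CPM. Of 26 measured matrix genes, 5 were lower and none higher. The basement membrane collagens *Col4a1* (fold 0.232) and *Col4a2* (9.59 against 31.2 CPM) were among them, as was the laminin *Lama1* (26.8 against 64.3 CPM). The mesenchyme and endothelial lists were lower in the same cells, and their part in the collagen values was not tested.

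Among 18 measured imprinted genes, *Ndn* was higher (54 against 19.6 CPM), and *Igf2* (2.3 against 6.77 CPM) and *H19* (8.53 against 19.5 CPM) were lower. Of 17 genes that mark the onset of radial glia, *Hopx* and the nuclear factor I gene *Nfix* (55.9 against 23.2 CPM) were higher. The diencephalic genes gave 2 higher and 1 lower of 8 measured, with *Irx5* at 6.24 against 1.11 CPM.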
